A study of Mus musculus with 4 samples.

Results

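The genes described here are 9 immediate early genes, Fos, Fosb, Jun, Junb, Egr1, Atf3, Nr4a1, Ier2 and Myc, chosen by name from the 37315 Ensembl gene identifiers of the count tables. Of the m6A peaks, those with a midpoint inside the RefSeq spans of these genes were taken, which gave 27 of the 31856 peaks of the entacapone list and 20 of the 22860 peaks of the vehicle list. The tissue was white fat from the inguinal depot of entacapone-treated and of vehicle-treated mice, all of them C57BL/6 males at 23 weeks of age and all obese from a high-fat diet. Entacapone is a catechol-O-methyltransferase inhibitor used in Parkinson's disease that has also been described as an inhibitor of FTO, an enzyme that removes N6-methyladenosine (m6A) from RNA. Each treatment had 1 input library of fragmented mRNA, which measures RNA level, and 1 library of fragments pulled down with an antibody against m6A (IP). The labels give neither the dose and duration of treatment nor the number of animals behind a library, and none of the 4 libraries was replicated, which leaves each difference below without a p-value.

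Immediate early genes are transcribed within minutes of a stimulus such as a growth factor, a rise in cAMP or stress, by factors already present in the cell, and most of their mRNAs are short-lived. Fos and Jun family proteins pair to form AP-1, a transcription factor that binds DNA through a basic leucine zipper, while Egr1 is a zinc finger factor and Nr4a1 an orphan nuclear receptor. In fat, several of these genes are known to respond to adrenergic stimulation, to insulin and feeding, and during the first hours of adipocyte differentiation. m6A is a methyl mark placed on adenosines within mRNA, often inside the letters GGAC, and is known to affect how long an mRNA lasts.

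The promoters of 6 of the 9 genes were found in a RefSeq table of GRCm38.p6, each as 250 bases before and 50 bases after the annotated transcript start. Those of Fos and Jun, whose input counts were lower with entacapone, and of Nr4a1, whose counts were higher, are printed 5′ to 3′ on the gene's strand. Capitals mark 2 kinds of match, read as the reverse complement where they lie on the other strand: the CRE core TGACG, part of the element bound by CREB and ATF proteins, and the variant TGACATCA known from the Jun promoter. The Fos window lies at chr12:85473640-85473939 on the plus strand, the Jun window at chr4:95052173-95052472 on the minus strand and the Nr4a1 window at chr15:101266596-101266895 on the plus strand.
Fos: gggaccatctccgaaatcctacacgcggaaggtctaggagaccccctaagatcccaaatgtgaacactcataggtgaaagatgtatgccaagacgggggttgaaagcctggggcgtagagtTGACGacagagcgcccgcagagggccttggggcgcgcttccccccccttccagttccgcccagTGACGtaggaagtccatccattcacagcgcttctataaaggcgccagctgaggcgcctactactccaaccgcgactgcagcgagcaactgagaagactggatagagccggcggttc
Jun: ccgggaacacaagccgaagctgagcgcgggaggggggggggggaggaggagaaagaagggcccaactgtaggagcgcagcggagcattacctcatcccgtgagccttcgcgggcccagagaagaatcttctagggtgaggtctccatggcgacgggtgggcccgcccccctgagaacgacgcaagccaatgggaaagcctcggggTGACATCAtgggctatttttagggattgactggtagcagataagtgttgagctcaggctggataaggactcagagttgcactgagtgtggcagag
Nr4a1: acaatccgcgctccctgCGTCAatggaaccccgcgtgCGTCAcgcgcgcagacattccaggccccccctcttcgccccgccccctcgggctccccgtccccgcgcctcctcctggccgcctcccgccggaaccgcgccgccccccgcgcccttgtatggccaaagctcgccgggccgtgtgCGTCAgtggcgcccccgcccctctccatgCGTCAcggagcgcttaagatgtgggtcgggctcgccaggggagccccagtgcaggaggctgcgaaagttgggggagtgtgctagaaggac

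The Fos window held 2 CRE cores, the Nr4a1 window 4 and the Jun window none, while the Jun variant stood at bases -45 to -38 from the transcript start. Fosb, Junb and Atf3 held 1 core each, so that 5 of the 6 windows had at least 1, against 20.8% of the 32851 promoter windows in the table. The full CRE TGACGTCA (1.79% of all windows), the AP-1 sites TGACTCA and TGAGTCA (5.20%) and the CArG box bound by serum response factor (1.63%) had no match in any of the 6. The EGR sites GCGTGGGCG and GCGGGGGCG, searched together, matched in Fosb and Nr4a1 (3.47% of all windows), and TGACATCA matched in Jun alone of the 6 (3.62%). A match is a description of these letters in this window, and the CRE core is contained in the full CRE.

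Input RNA was compared to ask whether the level of these transcripts differed between the treatments. Fos was the member with the largest difference: it was 2.43-fold lower in the entacapone input. Egr1 and Jun were also lower, to 0.635 and 0.689 of the vehicle level, whereas Myc (1.33-fold) and Nr4a1 (1.29-fold) were higher. Junb, Ier2, Atf3 and Fosb had intervals that included no change. In bulk tissue, fewer cells of a type and less RNA per cell cannot be told apart.

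The AP-1 genes did not move as a group. Fos (ENSMUSG00000021250), the founding AP-1 subunit, had 208 counts in the entacapone input and 374 in the vehicle input. Scaled to the library total as CPM, this was 6.27 CPM (exact Poisson 95% interval 5.45 to 7.18) with entacapone and 15.2 CPM (13.7 to 16.9) with vehicle. The intervals lay far apart, and the ratio of entacapone over vehicle was 0.412 with an exact conditional 95% interval of 0.346 to 0.489, a log2 ratio of -1.28. Of the 13820 identifiers with at least 1 CPM on average over both inputs, 1.32% had a lower log2 ratio than Fos. Such intervals cover counting error only, since reads are not independent molecules and the spread between animals was not measured.

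Jun, the main partner of Fos, had 2307 counts with entacapone and 2477 with vehicle, or 69.6 CPM with entacapone and 101 CPM with vehicle. Its ratio of 0.689 had an interval of 0.651 to 0.730, which excludes 1 and includes 1.5-fold lower. Junb (ENSMUSG00000052837), a subunit known to act in part against Jun (ENSMUSG00000052684), had 1431 counts (43.1 CPM) with entacapone and 989 (40.3 CPM) with vehicle, and its ratio interval of 0.987 to 1.16 included 1. Fosb (ENSMUSG00000003545), a Fos relative, was the member with the fewest counts, 64 (1.93 CPM) with entacapone and 55 (2.24 CPM) with vehicle. Its ratio interval ran from 0.591 to 1.26, which includes both no change and a level 1.5-fold lower. Atf3 (ENSMUSG00000026628), a stress-induced factor of the same zipper class, had 193 counts (5.82 CPM) with entacapone and 120 (4.89 CPM) with vehicle, with a ratio interval of 0.943 to 1.51.

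The factors outside AP-1 pointed both ways. Egr1 (ENSMUSG00000038418), which binds GC-rich promoter sites, had 631 counts (19.0 CPM) with entacapone and 736 (30.0 CPM) with vehicle. The Egr1 ratio of 0.635 had an interval of 0.570 to 0.707, entirely below 1 but not entirely beyond 1.5-fold. Nr4a1 (ENSMUSG00000023034), also known as Nur77, had 304 counts (9.17 CPM) with entacapone and 175 (7.13 CPM) with vehicle, with a ratio of 1.29 (1.06 to 1.56). Myc (ENSMUSG00000022346), a regulator of growth genes and ribosome production, had 699 counts (21.1 CPM) with entacapone and 388 (15.8 CPM) with vehicle, with a ratio of 1.33 (1.18 to 1.51). Ier2 (ENSMUSG00000053560), a small nuclear protein of the early response, had 855 counts (25.8 CPM) with entacapone and 648 (26.4 CPM) with vehicle, with a ratio of 0.977 (0.881 to 1.08).

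**Figure D1:**
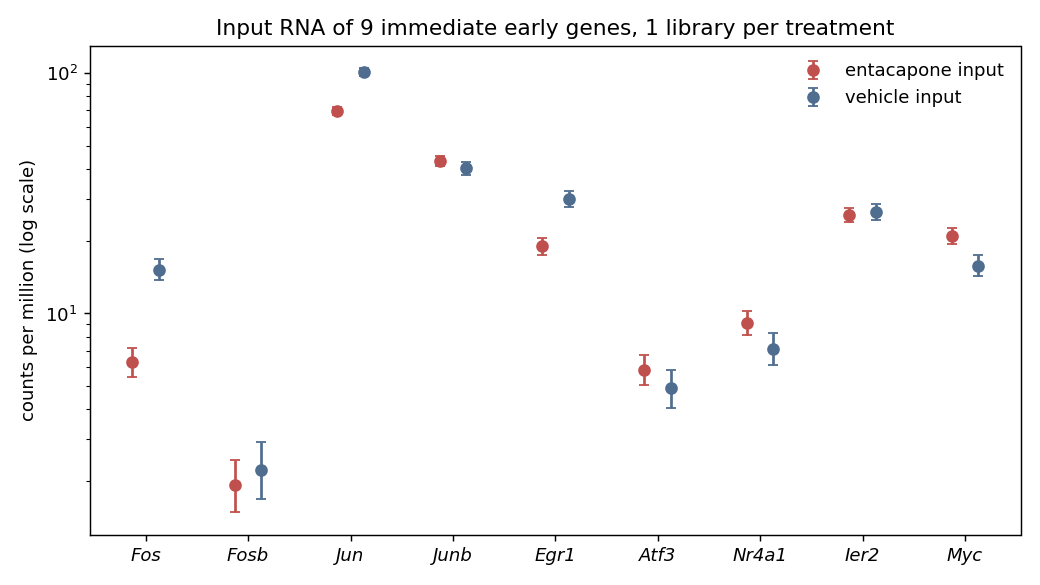
Input level in CPM (log axis) of the 9 genes in the entacapone input (red) and the vehicle input (blue), 1 library each; bars are exact Poisson 95% intervals. Fos, Jun and Egr1 lie lower in the entacapone input, and Myc lies higher, with bars that do not overlap. The bars of Fosb, Junb, Atf3, Nr4a1 and Ier2 overlap, although the interval of the Nr4a1 ratio, 1.06 to 1.56, excludes 1.

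A gene was called higher or lower where its whole ratio interval lay beyond 1.5-fold. By that rule 1 of the 9 genes was lower, Fos, and 0 were higher, beside 2.52% of all 13820 identifiers lower and 5.60% higher. With intervals that exclude 1, 3 members were lower, beside 20.0% of all identifiers, and 2 were higher, beside 37.3%. The median log2 ratio was -0.03 over the 9 genes and 0.08 over all identifiers tested, with 5 members below and 4 above 0.08. The 9 genes together had 6692 counts with entacapone and 5962 with vehicle, or 202 CPM with entacapone and 243 CPM with vehicle. Jun, the member with the most counts, made up 69.6 CPM of the entacapone sum and 101 CPM of the vehicle sum. Rank among all identifiers placed Egr1 (3.59% had a lower log2 ratio) and Jun (5.05%) next to Fos, and Myc at the other end (83.2%).

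**Figure D2:**
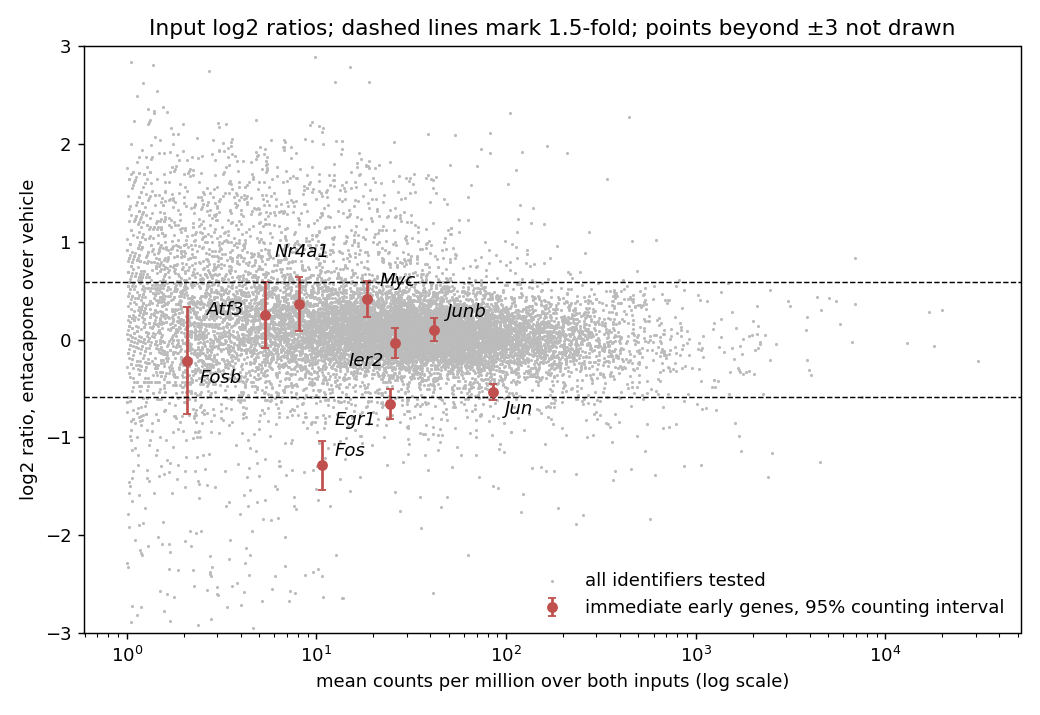
Log2 ratio of entacapone over vehicle against the mean CPM (log axis) for the 13820 identifiers tested (grey, those beyond 3 or -3 not drawn) and the 9 genes (red, with 95% counting intervals); dashed lines mark 1.5-fold. The interval of Fos lies wholly below the lower line, those of Egr1, Jun and Fosb cross it, and those of Myc, Nr4a1 and Atf3 lie mostly between 0 and the upper line.

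Jun, Junb and Ier2 are genes without introns, so their span is the length of the transcript and their levels can be set against each other per kilobase. Per kilobase of span, Junb was at 23.5 CPM per kb with entacapone and 21.9 CPM per kb with vehicle. Jun was at 21.8 CPM per kb with entacapone and 31.7 CPM per kb with vehicle, and Ier2 at 16.9 CPM per kb with entacapone and 17.3 CPM per kb with vehicle. In the entacapone input the intervals of Junb (22.3 to 24.7) and Jun (20.9 to 22.7) overlapped, while that of Ier2 (15.8 to 18.1) lay below both. In the vehicle input Jun (30.4 to 32.9) stood above Junb (20.6 to 23.3), and Junb above Ier2 (16.0 to 18.7). The level of the other 6 genes was not compared between genes, since their transcript lengths were not used here.

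Peaks of the m6A pull-down were then set side by side to see where these transcripts carried the mark and whether its pattern differed. Peaks were listed in 8 of the 9 genes in each list, in the same 8, beside 49.9% of 21900 protein-coding genes in the entacapone list and 41.1% in the vehicle list; that background includes genes with no RNA in this tissue. Fosb, at chr7:19302696-19310118, had no peak in either list, which does not show that its transcript lacks m6A, as it was also the gene with the fewest input counts. The entacapone list gave 27 peaks and the vehicle list 20, 1.35 times as many, where the whole lists differed 1.39-fold. The number of IP reads behind the lists is unknown here.

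Most peaks in these genes overlapped a peak of the other list by at least 1 bp. A vehicle peak was shared, by at least 1 bp, with 20 of the 27 entacapone peaks (74.1%), beside 55.9% of the whole entacapone list. An entacapone peak was shared with 19 of the 20 vehicle peaks (95%), beside 78.7% of the whole vehicle list. With an overlap of 50% of both peaks required, 14 of the 27 entacapone and 14 of the 20 vehicle peaks were shared. That stricter share was not computed over the whole lists. Merged over both lists the peaks formed 26 regions, of which 18 were common, 7 came from entacapone peaks alone and 1 from a vehicle peak alone. Within a gene, the peaks of largest fold of the 2 lists also overlapped. In all 7 members with at least 2 peaks in each list, Jun, Junb, Egr1, Atf3, Nr4a1, Ier2 and Myc, the entacapone peak of largest fold overlapped the vehicle peak of largest fold, beside 38.8% of 4797 protein-coding genes with at least 2 peaks in each list. Among the 3704 genes with peak numbers in the range of these 7 members (2 to 6 entacapone and 2 to 4 vehicle peaks), the share was 42.3%. When the overlap had to cover 50% of both peaks, 6 of the 7 members kept this overlap. The largest vehicle fold was a near tie in Myc (4.60 and 4.59) and in Ier2 (2.16, 2.08 and 2.06). The genes behind the 38.8% and 42.3% were not matched to the members for gene length or peak width.

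**Figure D3:**
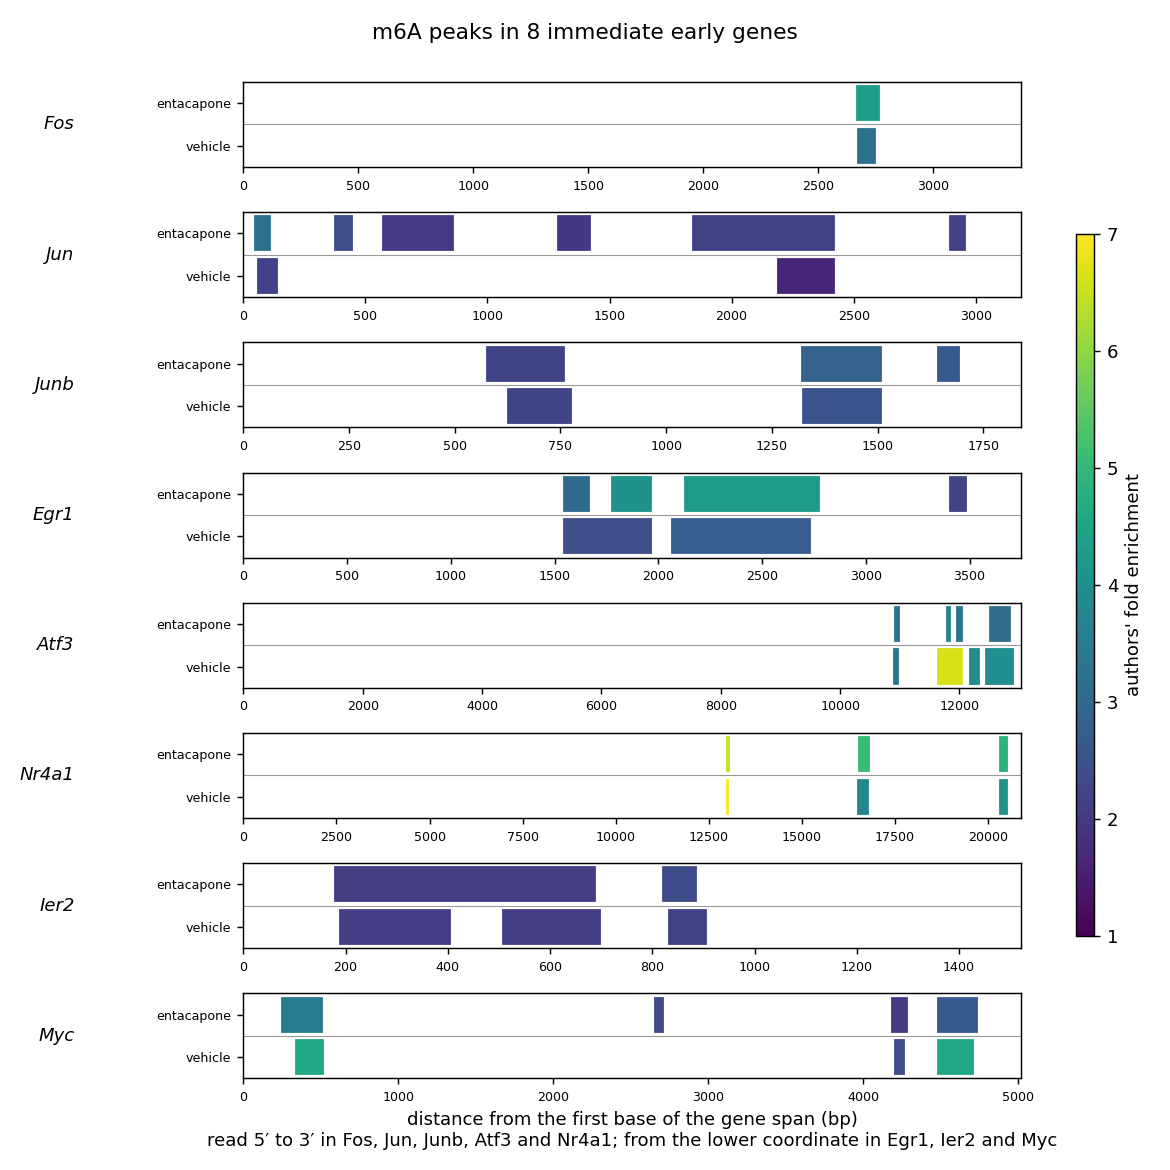
Position of each m6A peak along 8 genes (horizontal axis in bp from the first base of the span), with the entacapone list above the vehicle list in each panel and colour giving the authors' fold enrichment. In Jun 4 entacapone peaks have no vehicle peak under them, in Atf3 the vehicle peaks are wider, and in Nr4a1 the 3 peaks stand at the same places in both lists.

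Fos and Nr4a1 had the plainest maps. Fos (chr12:85473890-85477274) carried 1 peak in each list, at 85476562 to 85476656 with entacapone (fold 4.31) and at 85476566 to 85476640 with vehicle (fold 3.22). The vehicle peak lay entirely inside the entacapone peak, 665 bp before the end of the span when measured from the middle of the entacapone peak. The member with the lowest input ratio thus had the same single peak region in both lists. Each fold is the authors' value for its own list and ranks peaks within that list: 24.3% of all entacapone peaks and 53.2% of all vehicle peaks had a larger fold than the Fos peak of that list.

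Nr4a1 (chr15:101253902-101274795) carried 3 peaks in each list, and all of them were shared. Its peak of largest fold lay at the start of the transcript whose promoter is printed above, at 101266885 to 101266935 with entacapone (fold 6.49) and at 101266877 to 101266926 with vehicle (fold 6.95). Only 5.27% of entacapone peaks and 5.80% of vehicle peaks had a larger fold. The middle of this peak stood 64 bp after the transcript start with entacapone and 55.5 bp with vehicle. The stretch of the vehicle peak that falls inside the promoter window, chr15:101266877-101266895 and bases 32 to 50 of the transcript, is shown because it carries the GGAC letters, in capitals.
Nr4a1 start: gggagtgtgctagaaGGAC

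The entacapone peak covered the last 11 bases of that stretch, GGAC included. GGAC was found on the gene's strand in the first 50 transcribed bases of 18.9% of the 32851 promoter windows and in 4 of the 6 available here. The other Nr4a1 peaks lay at 101270427 to 101270697 (fold 5.04) and 101274223 to 101274412 (fold 4.83) with entacapone, against 101270398 to 101270686 (fold 3.81) and 101274224 to 101274420 (fold 4.06) with vehicle. Bases inside Nr4a1 peaks numbered 509 with entacapone and 533 with vehicle, of which 488 were common to both lists.

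Jun (chr4:95049036-95052222) differed most in number of peaks, with 6 in the entacapone list and 2 in the vehicle list. Both vehicle peaks were shared: the one beside the transcript start, at 95052084 to 95052161 with vehicle (fold 2.18), overlapped an entacapone peak at 95052113 to 95052174 (fold 3.21). The second, at 95049804 to 95050030 with vehicle (fold 1.66), lay under a wider entacapone peak at 95049801 to 95050379 (fold 2.15). The other 4 entacapone peaks, at 95049267 to 95049328, 95050802 to 95050933, 95051365 to 95051650 and 95051776 to 95051847, had folds of 1.96 to 2.42. Jun bases inside peaks numbered 1187 with entacapone and 303 with vehicle, or 37.2% of the span with entacapone and 9.51% with vehicle. Mean folds of the Jun peaks were 2.32 with entacapone and 1.92 with vehicle. Of 8475 protein-coding genes with a peak in both lists, 3.21% had at least 4 more entacapone peaks, and 95.7% had a smaller ratio of bases than the 3.92 of Jun. With a minimum fold of 2 in both lists Jun had 5 entacapone peaks and 1 vehicle peak, and with a minimum of 4 it had none in either list. With the same number of peaks of largest fold kept from each list, which drops low-fold entacapone peaks alone, Jun had 2 peaks in either list. Input counts of Jun, which bear on how readily its peaks were found, were 2307 with entacapone and 2477 with vehicle.

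Atf3 (chr1:191170296-191183333) went the other way in length, with 4 peaks in each list but 528 bases inside entacapone peaks and 1075 inside vehicle peaks. Only 2.82% of the 8475 genes had a smaller ratio of bases than its 0.491. Its vehicle peak of largest fold, at 191171289 to 191171697 (fold 6.63), was represented in the entacapone list by 2 short peaks at 191171297 to 191171374 (fold 3.30) and 191171489 to 191171547 (fold 3.73). A vehicle peak at 191171010 to 191171152 (fold 3.93) was the single vehicle peak in these genes with no entacapone peak over it. Mean folds of the Atf3 peaks were 3.35 in the entacapone list and 4.47 in the vehicle list, and all of them lay between 191170436 and 191172436, at the 3′ end of the gene.

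Egr1, Junb, Myc and Ier2 had overlapping peaks of largest fold in both lists, and differed in edges, splitting, small peaks and some folds. Egr1 (chr18:34861207-34864956) had 4 entacapone and 2 vehicle peaks, yet 1038 bases inside entacapone peaks and 1082 inside vehicle peaks. The Egr1 vehicle peak at 34862754 to 34863173 was split into 2 entacapone peaks, and the peak of largest fold lay at 34863335 to 34863983 with entacapone (fold 4.27) and 34863275 to 34863938 with vehicle (fold 2.75). An entacapone peak at 34864613 to 34864692 (fold 2.20) had no vehicle peak. Junb (chr8:84976909-84978748) had 3 entacapone peaks over 422 bases and 2 vehicle peaks over 331 bases, and its added entacapone peak at 84977056 to 84977105 (fold 2.64) was 49 bp wide.

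Myc (chr15:61985341-61990361) had 4 entacapone peaks over 662 bases and 3 vehicle peaks over 466 bases. With the same number of peaks of largest fold kept from each list, it had 2 entacapone and 3 vehicle peaks. The region near the lower end of its span, at 61985593 to 61985851 with entacapone (fold 3.46) and 61985680 to 61985855 with vehicle (fold 4.60), had the largest fold in both lists. Another Myc vehicle peak, at 61989823 to 61990053, had nearly the same fold (4.59), and 25.4% of the vehicle list had a larger one. The entacapone peak there, at 61989822 to 61990075, had fold 2.66, and 62.9% of the entacapone list had a larger one. The entacapone peak at 61987995 to 61988047 (fold 2.35) was the Myc peak without a vehicle counterpart. Ier2 (chr8:84661331-84662852) had 2 entacapone and 3 vehicle peaks, but 574 bases inside entacapone peaks and 479 inside vehicle peaks, because 1 entacapone peak of 509 bp, at 84661510 to 84662019, spanned 2 vehicle peaks. All Ier2 folds were low, 2.06 and 2.36 with entacapone and 2.06 to 2.16 with vehicle, and with equal numbers of peaks from each list Ier2 had 0 entacapone and 3 vehicle peaks.

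**Figure D4:**
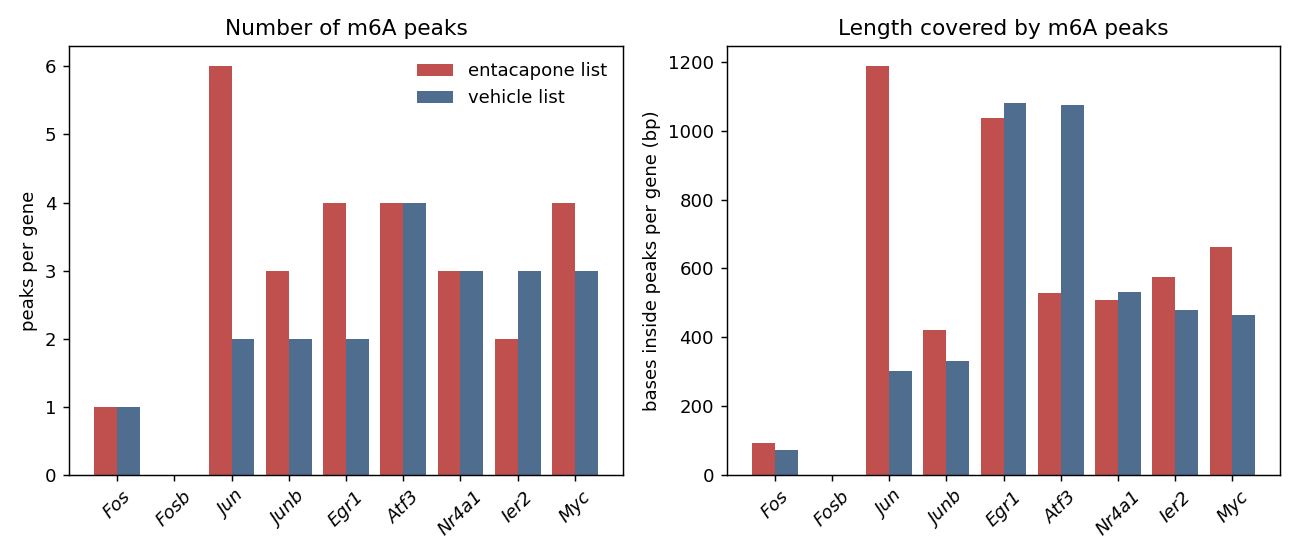
Number of m6A peaks (left) and bases inside peaks (right) per gene in the entacapone list (red) and the vehicle list (blue). Jun has 6 entacapone and 2 vehicle peaks, Atf3 has 528 bases inside entacapone peaks and 1075 inside vehicle peaks, and Fosb has none.

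Number and length of peaks gave different counts of genes. By number, 4 of the 8 genes with a peak in both lists had more entacapone peaks, beside 46.4% of the 8475 genes, and 1 had fewer, beside 14.4%. By bases inside peaks, 5 had more with entacapone, beside 73.2% of the 8475 genes, and 3 had fewer, beside 26.2%. The median ratio of bases was 1.23 over these 8 genes and 1.27 over the 8475. Together the members had 5014 bases in entacapone peaks and 4343 in vehicle peaks, a ratio of 1.15, where the whole lists differed 1.38-fold. With the same number of peaks of largest fold kept from each list the direction turned, to 17 entacapone and 20 vehicle peaks, and to 2971 bases in entacapone peaks and 4343 in vehicle peaks, a setting that drops low-fold entacapone peaks alone.

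Folds of the peaks in these genes ran from 1.96 to 6.49 with entacapone and from 1.66 to 6.95 with vehicle. The median fold was 2.88 over the 27 entacapone peaks, where the whole list had 3.10, and 2.98 over the 20 vehicle peaks, where the whole list had 3.32. Of the 27 entacapone peaks 15 lay below the median of their list, and of the 20 vehicle peaks 11 did. Both are close to the even split that a median gives by definition. The median width was 122 bp with entacapone and 187 bp with vehicle, where the whole entacapone list had 112 bp and the whole vehicle list 115 bp. Among the widest 10% of each list, above 304 bp with entacapone and 301 bp with vehicle, 4 peaks of these genes were found in each list, in Jun, Egr1, Atf3 and Ier2 with entacapone and in Egr1 and Atf3 with vehicle. The 7 entacapone peaks without a vehicle peak had a median fold of 2.20, and the 20 shared ones 3.24.

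**Figure D5:**
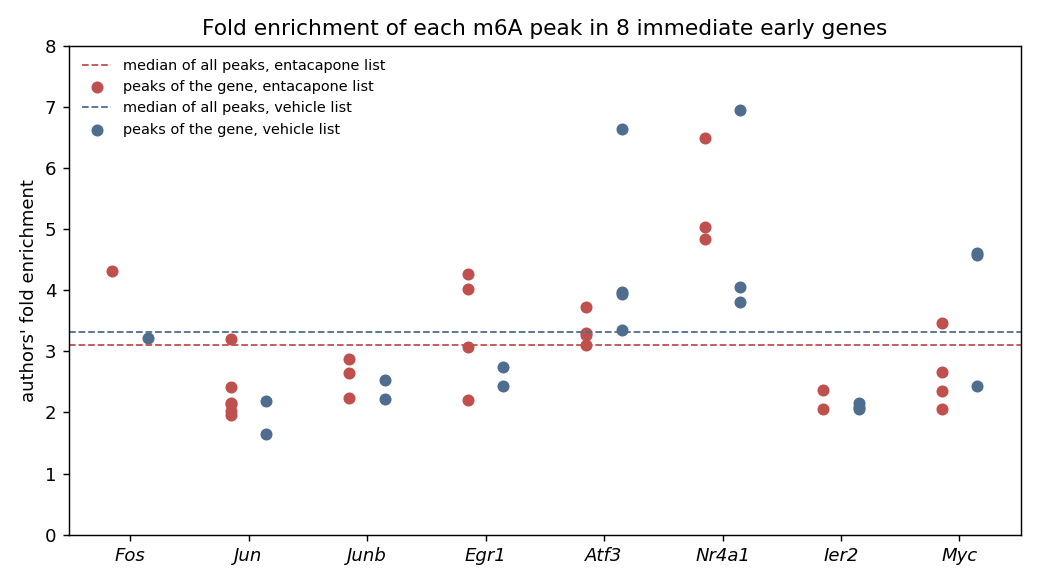
Authors' fold enrichment of each peak in 8 genes, with entacapone peaks (red) left of vehicle peaks (blue); dashed lines give the median of the whole entacapone list (3.10) and of the whole vehicle list (3.32). Peaks of Nr4a1 lie above the median of their list in both lists, and those of Ier2 lie below it in both; folds rank peaks within a list.

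Input ratios and peak numbers can be set side by side. Fos, with an input ratio of 0.412, had 1 peak in each list, Egr1, with 0.635, had 4 entacapone and 2 vehicle peaks, and Jun, with 0.689, had 6 entacapone and 2 vehicle peaks. Of the genes higher in the entacapone input, Nr4a1 had 3 peaks in each list and Myc 4 entacapone and 3 vehicle peaks. With 2 libraries of each kind no relation between level and peaks was tested.

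Other genes of the early response were described by peaks, since the count tables hold identifiers without names and no table used here pairs them. In 8 lists with 140 genes, 122 genes (87.1%) had an entacapone peak and 99 (70.7%) a vehicle peak, beside 49.9% of protein-coding genes with an entacapone peak and 41.1% with a vehicle peak. As above, that background includes genes with no RNA in this tissue. All 99 genes with a vehicle peak also had an entacapone peak, and 23 had an entacapone peak alone. Over all protein-coding genes, 8475 of the 9001 with a vehicle peak also had an entacapone peak, as did most of the list genes. The genes with an entacapone peak numbered 10938, so an entacapone peak alone was common there too. Of these 99 genes 36 (36.4%) had more entacapone peaks and 17 (17.2%) fewer, beside 46.4% of all such genes with more and 14.4% with fewer. With the same number of peaks of largest fold from each list, 88 of the 140 had an entacapone peak and 99 a vehicle peak.

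Other AP-1 subunits and partners had 12 members with an entacapone peak and 10 with a vehicle peak, of 12. Fosl2, a Fos relative that is known to act in fat, had 4 entacapone peaks and 1 vehicle peak, and Batf3 had 3 entacapone peaks and 1 vehicle peak. Mafk, a small Maf protein, had 5 entacapone and 3 vehicle peaks, and Jdp2, a Jun dimerisation partner, 2 entacapone and 3 vehicle peaks. Of the 7 other EGR and NR4A genes and EGR corepressors, 5 had a peak in each list, and Egr3 was the gene whose number differed, with 4 entacapone and 2 vehicle peaks. Among 25 other early transcription factors and coregulators, 23 had an entacapone peak and 20 a vehicle peak. Srf, serum response factor, had 4 entacapone peaks and 1 vehicle peak, and Klf2 had 3 entacapone peaks and 1 vehicle peak. The Krüppel-like factor genes Klf4, with 6 entacapone and 5 vehicle peaks, and Klf10, with 5 entacapone and 4 vehicle peaks, differed by a single peak each.

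Of 24 feedback inhibitors, which shut the early response down, 23 had an entacapone peak and 20 a vehicle peak. Zfp36, which binds AU-rich elements and speeds decay of early mRNAs, had 3 entacapone peaks and 0 vehicle peaks, and Gadd45g had 2 entacapone peaks and 0 vehicle peaks. Trib1 had 7 entacapone and 4 vehicle peaks, whereas Socs3, an inhibitor of cytokine signalling, had 2 entacapone and 4 vehicle peaks. Upstream kinases and SRF, TCF and CREB factors had 21 of 22 members with an entacapone peak and 17 with a vehicle peak. In that list Mrtfb, an SRF cofactor, had 4 entacapone and 7 vehicle peaks, and Map2k1, the kinase MEK1, had 2 entacapone and 0 vehicle peaks. Rps6ka3, a ribosomal S6 kinase gene, had 3 entacapone peaks and 1 vehicle peak, and Elk3, an SRF partner, 5 entacapone and 3 vehicle peaks.

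MYC partners and antagonists had 10 of 12 members with an entacapone peak and 9 with a vehicle peak. Max, the obligate partner of MYC, had 3 entacapone and 2 vehicle peaks, and Mxd1, which competes for it, 5 entacapone and 2 vehicle peaks. Mga had 12 entacapone and 9 vehicle peaks, and Zbtb17 had 4 entacapone and 2 vehicle peaks. Secreted and inflammatory early genes had 16 of 19 members with an entacapone peak and 8 with a vehicle peak. Vegfa, an angiogenic factor, had 5 entacapone and 0 vehicle peaks, Thbs1, a matrix glycoprotein gene, 4 entacapone peaks and 1 vehicle peak, and Ccn1, a matricellular protein gene, 2 entacapone and 0 vehicle peaks. Heat shock and stress genes had 12 of 19 members with an entacapone peak and 10 with a vehicle peak. Hsph1 had 1 entacapone and 3 vehicle peaks, Bag3 4 entacapone and 2 vehicle peaks, and Hspd1 1 entacapone and 0 vehicle peaks. Hspa1b had 4 entacapone and 5 vehicle peaks, although its reads are hard to tell from those of its near-identical copy Hspa1a.

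The entacapone input held 33164576 counts and the vehicle input 24548212, a ratio of 1.35. Markers of cell types could be read through peaks alone, so the tissue label was not checked by RNA level. In each list 4 of 6 adipocyte markers had a peak, 15 entacapone and 9 vehicle peaks in all, and Adipoq and Fabp4 had none in either. Endothelial markers had 5 of 5 members with an entacapone peak and 3 with a vehicle peak, 18 entacapone and 4 vehicle peaks in all. Of 5 markers each, an entacapone peak stood in 1 macrophage, 4 lymphocyte, 1 skeletal muscle, 5 epithelial and 3 fibroblast markers, and a vehicle peak in 2 macrophage, 3 lymphocyte, 2 skeletal muscle, 3 epithelial and 2 fibroblast markers. Of 3 hepatocyte markers 1 had an entacapone peak and 0 a vehicle peak, and the 5 neutrophil markers had none in either list. Their part in the differences of the 9 genes was not tested.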

How the data were processed

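Fragmented poly(A) RNA, before and after pull-down with an antibody against m6A, was made into TruSeq version 2 libraries, per the labels' protocols, a kit that keeps no strand. TopHat2 2.1.1, MACS2 and mm10 are named in the submitters' processing notes; no counting tool, annotation release or peak threshold is given in the sources used here. In the inputs, the deposited values are raw read counts per Ensembl identifier, from files without headers, so the unit was read from the values. The deposited peak lists give a chromosome, start, end and 1 more number without a label, taken as a linear ratio, the authors' fold enrichment of pull-down above input. It is not stated if starts are 0-based or 1-based, and coordinates are printed as deposited.

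Counts were divided by library totals (33164576 and 24548212). Identifiers with at least 1 CPM on average entered, and log2 ratios used a prior of 0.5 counts. Ratios carry Clopper-Pearson 95% intervals (SciPy 1.17.1). In simulated counts for the 13820 identifiers, the rule found 86% of identifiers set to a ratio of 0.5, 78% of those set to 2 and 0 of 13620 left alone. These counts were drawn with Poisson counting error alone, the error that the intervals assume, and without spread between animals or libraries. The 0 calls are therefore no error rate for unreplicated tissue. Scaling was repeated with edgeR 4.0.16 and DESeq2 1.42.0. Peaks were assigned by midpoint to spans of RefSeq genes on GRCm38.p6, the assembly called mm10; no other gene of that table overlaps the 9 spans. Counts of the related lists could not be run for want of a name for each identifier, so their peaks were counted instead. Members, lists and rules were chosen with earlier results of these data known. Named from each list were at most the 4 genes whose peak numbers differed most.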

Additional observations from a re-analysis of the deposited data

How the results depend on the processing

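No paired analysis was possible because each treatment had 1 library of each kind. Of 116 alternative values, 101 stayed within the margins and 15 moved. The margin was 1.5-fold for a count and the counting interval for a log2 ratio. A drop from 20 to 14 shared entacapone peaks, or from 122 to 88 related genes with an entacapone peak, thus counted as within. Assigning peaks by any overlap, or to spans extended by 1 kb, left the 27 entacapone and 20 vehicle peaks unchanged. All 36 log2 ratios recomputed with TMM, DESeq2 or upper quartile factors or without a prior count kept their direction. Each stayed inside that gene's counting interval. A change of scaling moves every gene by the same amount, -0.08 with TMM or DESeq2 factors and -0.05 with upper quartile factors. The 36 values are therefore not 36 separate checks. Fos alone was called under each scaling, with a 99% interval and with a fold limit of 2. With TMM factors the median of all identifiers moved by -0.08 and Egr1 came to -0.74, its interval ending at 0.668, just short of the 1.5-fold limit. The interval of the Nr4a1 ratio then began at 1.006, barely above no change. Over all identifiers a fold limit of 2 left 343 higher and 167 lower, while TMM factors gave 673 higher and 427 lower.

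With a minimum fold of 4 these genes had 6 entacapone and 5 vehicle peaks, in 3 members each, of which 2 entacapone and 2 vehicle peaks were shared, and 1 member still had 2 peaks in both lists. That setting left 1440 bases in entacapone and 1058 in vehicle peaks, and 35 related genes with an entacapone and 33 with a vehicle peak. With the same number of peaks of largest fold, 17 entacapone and 20 vehicle peaks remained, over 2971 and 4343 bases. The planned input comparison of the related lists and its alternatives were not run. The settings for bases in peaks, for overlap of the largest peaks and for related genes were chosen after seeing the data. Without replicates, the depth limits the counts and the unknown IP depth limits the peaks.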
